A study of Mus musculus with 15 samples.

Results

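Vcam1, Icam1, Icam2, Sele, Selp, Selplg, Glycam1 and Madcam1 encode leukocyte adhesion molecules, selectins and selectin ligands, the proteins through which blood leukocytes are slowed, held and passed across a vessel wall. These 8 genes were chosen by name from the 18193 genes that had at least 1 probe set of their own. Earlier results of these data were known when they were chosen. All probe sets annotated to exactly 1 gene of the group were taken, which gave 12 of the 45037 probe sets tested. Vcam1 and Selp had 3 probe sets each, and the other 6 genes had 1 each.

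Each of the 15 Affymetrix arrays carried RNA of the whole aorta (root to bifurcation) of 1 male C57BL/6 mouse, 9 weeks old. Every mouse was ApoE-/-, lacking the lipid carrier apolipoprotein E, so the levels of an aorta with intact ApoE are not among these values. The 4 groups were diabetic ApoE null mice (replicates 1 to 4), non-diabetic ApoE null mice (replicates 5 to 8), diabetic ApoE-/- RAGE-/- mice, here ApoE/RAGE null (replicates 9 to 12), and non-diabetic ApoE/RAGE null mice (replicates 13 to 15). RAGE, the product of Ager, is the receptor for advanced glycation end products. Diabetes had been induced at 6 weeks of age with streptozotocin, a beta cell toxin, in 5 daily injections of 65 mg/kg, and the other mice had received citrate buffer. The ApoE null mice were supplied by Jackson labs, while a different laboratory's colony supplied the ApoE/RAGE null mice, so genotype and colony cannot be told apart, and neither can the drug and the diabetes it induces. Replicate numbers ran from 1 to 15 over the series and paired no mice. In RNA of a whole vessel, fewer cells of a type and less RNA per cell cannot be told apart.

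The arrays were checked against their labels before the comparisons. Smooth muscle genes were high on all 15 arrays (Acta2 between 13.19 and 13.45 on the log2 scale), and endothelial genes were present (mean of 10 genes between 6.88 and 7.65). The genotype rests on the labels: Ager (probe set 1441958_s_at) read 4.17 to 4.69 on ApoE null arrays, 4.89 to 5.09 on replicates 13 to 15, and 4.63, 4.48, 5.36 and 4.95 on replicates 9 to 12. The other Ager probe set, 1420428_at, did not separate the labelled genotypes. It read 3.08 to 3.66 on ApoE null and 3.29 to 3.50 on ApoE/RAGE null arrays, with 3.41 and 3.50 on replicates 9 and 10. Whether the probes of either set lie in the deleted part was not known here. Decr2, singled out because it separated the genotypes on the other arrays, read 6.84 to 6.98 on replicates 13 to 15 and 7.40 and 7.56 on replicates 11 and 12, but 5.19 and 5.10 on replicates 9 and 10, below the 5.32 to 6.01 of the ApoE null arrays. Replicate 10 also stood apart in leukocyte genes, whose mean over 5 genes was 9.99 there and 5.99 to 7.93 elsewhere. On replicates 9 and 10, then, Ager 1441958_s_at lay within the ApoE null range. Neither it nor Decr2 read as on the other 5 arrays labelled ApoE/RAGE null, while Ager 1420428_at read alike under both labels. The genotype of replicates 9 and 10 may be mislabelled, which was not tested. SEs and limma p-values of the other comparisons also depend on these arrays, because a single fit shared its estimate of spread over all 15. Every value of the group labelled diabetic ApoE/RAGE null holds only as far as that label does, and its main results are given also without replicate 10 or without replicates 9 and 10. Skeletal muscle genes averaged 7.50 to 9.35 over 8 genes in that group and 4.04 to 5.04 in replicates 13 to 15. In ApoE null aorta they averaged 5.10 to 8.17 with diabetes and 4.19 to 7.68 without it. Their part in the results was not tested.

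Leukocytes leave the blood in steps. Selectins on activated endothelium (P-selectin and E-selectin) and their sugar-bearing ligands, such as PSGL-1, let the cells roll. Members of the immunoglobulin superfamily (VCAM-1, ICAM-1, ICAM-2) then bind leukocyte integrins and hold the cells before they cross. In atherosclerosis-prone arteries VCAM-1 and ICAM-1 are known markers of activated endothelium, and NF-kB, a transcription factor that RAGE signalling is known to switch on, is a known inducer of both and of E-selectin.

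RefSeq promoter sequences (build GRCm38.p6) were found for 5 of the 8 genes: Icam1, Sele, Selp, Glycam1 and Madcam1. Vcam1, Icam2 and Selplg had no entry in the table used. The 250 bases before the transcription start of Icam1, Selp and Sele are shown because these are inducible endothelial members with an entry, of which Icam1 and Selp were measured above background here and Sele was not. Capitals mark each match, on either strand, to the NF-kB-like word GGNNNTTCC. The windows lie on the plus strand at chr9:21015690-21015939 (Icam1), chr1:164115014-164115263 (Selp) and chr1:164047984-164048233 (Sele). The Sele window lies inside the span annotated for the gene, chr1:164039614-164058487. The start used for Sele is therefore not the first base of that span.
Icam1: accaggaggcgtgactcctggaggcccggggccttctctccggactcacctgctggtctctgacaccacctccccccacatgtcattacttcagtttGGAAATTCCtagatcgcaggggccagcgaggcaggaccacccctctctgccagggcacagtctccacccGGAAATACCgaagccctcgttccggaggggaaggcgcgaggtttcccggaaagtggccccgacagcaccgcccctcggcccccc
Selp: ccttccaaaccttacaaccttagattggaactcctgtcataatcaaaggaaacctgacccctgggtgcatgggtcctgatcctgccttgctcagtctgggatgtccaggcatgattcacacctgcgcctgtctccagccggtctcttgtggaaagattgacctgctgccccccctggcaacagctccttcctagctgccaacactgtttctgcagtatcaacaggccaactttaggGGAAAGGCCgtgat
Sele: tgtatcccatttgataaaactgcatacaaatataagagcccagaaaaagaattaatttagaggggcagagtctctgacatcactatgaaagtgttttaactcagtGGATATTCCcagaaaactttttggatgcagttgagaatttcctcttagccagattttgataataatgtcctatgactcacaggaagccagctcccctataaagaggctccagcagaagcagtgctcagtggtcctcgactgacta
The Icam1 window held 2 matches, which began 153 and 84 bases before the start, and 1 GC box (GGGCGG). A match in Selp began 14 bases before the start, beside an AP-1 word (TGANTCA) at 139 bases. In Sele a match lay 145 bases before the start, an AP-1 word at 73 bases and a TATA box (TATAAA) at 49 bases. Madcam1 had 2 NF-kB-like matches, at 83 and 70 bases, and Glycam1 had none of the 4 words. Of 32851 windows of this length, 15.7% held the NF-kB-like word, 6.75% the AP-1 word, 12.4% the TATA box and 32.7% the GC box, counted on both strands. A match is a description of letters and shows no binding. Matches of different words did not overlap in these windows.

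All levels are log2 RMA values as deposited, and levels of different probe sets are not set against each other. Olfactory and vomeronasal receptor genes were taken to be mostly unused in the aorta, which was not tested. As a yardstick of background, the 95th percentile of the mean level of their 80 probe sets was 3.55. Vcam1, Icam1, Icam2, Selplg and the Selp probe set 1420558_at were above it on all 15 arrays. Sele was above it on 0 arrays, Madcam1 on 2, Glycam1 on 4, and the other Selp probe sets on 10 (1449906_at) and 5 (1440173_x_at). For 10 of the 12 probe sets the SD over the 15 arrays lay above the 90th percentile of all probe sets. The exceptions were Vcam1 1451314_a_at (88.8th) and Sele (28.3rd), and Glycam1 had the highest percentile, with an SD of 2.80.

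Vcam1 encodes the endothelial ligand of the leukocyte integrin formed by the Itga4 and Itgb1 products, which holds monocytes and lymphocytes on activated endothelium. On probe set 1448162_at, non-diabetic ApoE null replicates 5 to 8 had levels of 7.0, 7.63, 7.44 and 7.40, and diabetic replicates 1 to 4 had 7.89, 8.21, 8.13 and 8.20. Every diabetic array of this genotype lay above every non-diabetic one. Non-diabetic ApoE/RAGE null replicates 13 to 15 had 7.24, 6.94 and 7.13. Diabetic ApoE/RAGE null replicates 9 to 12 had 7.86, 9.01, 7.70 and 6.85, so that group held both the highest level of the 15 arrays, on replicate 10, and the lowest, on replicate 12. In order, the group means were 8.11 ± 0.15 (SD, n = 4) in diabetic ApoE null, 7.86 ± 0.89 (n = 4) in diabetic ApoE/RAGE null, 7.37 ± 0.27 (n = 4) in non-diabetic ApoE null and 7.10 ± 0.15 (n = 3) in non-diabetic ApoE/RAGE null aorta. The ranges of neighbours in this order overlapped.

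The diabetic minus non-diabetic difference of Vcam1 1448162_at was 0.74 ± 0.31 (SE; 95% interval 0.078 to 1.40; 1.67-fold) in ApoE null aorta, with a limma adjusted p of 0.432. That limma adjusted p was 0.176 without replicates 9 and 10, which enter the SE through the shared estimate of spread. For ApoE/RAGE null aorta the difference was 0.75 ± 0.33 (0.039 to 1.47), with a limma adjusted p of 0.681 and an exact permutation p of 0.229. An exact two-sided permutation test of the ApoE null difference gave p = 0.0286, the smallest that 4 against 4 arrays allow, before any adjustment. The ApoE/RAGE null value depended on the arrays taken: it was 0.37 without replicate 10, 0.17 without replicates 9 and 10, and 1.09 without replicate 12. RAGE deletion differed by -0.27 ± 0.33 without diabetes and by -0.25 ± 0.31 with it, and the latter was -0.64 without replicate 10, -0.83 without replicates 9 and 10 and 0.083 without replicate 12. None of these differences passed the adjusted threshold of 0.05.

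The other Vcam1 probe sets ordered the groups in the same way, with less spread on 1451314_a_at. There, diabetic ApoE null arrays had 6.84, 6.89, 6.74 and 6.84, all above the 6.07, 6.33, 6.54 and 6.41 of the non-diabetic ones. Its replicates 9 to 12 had 6.62, 6.96, 6.38 and 6.21, all above the 6.05, 6.12 and 6.06 of replicates 13 to 15. So the diabetic and non-diabetic arrays of both genotypes were apart on this probe set. The differences with diabetes were 0.49 ± 0.13 in ApoE null aorta (exact permutation p = 0.0286) and 0.47 ± 0.15 in ApoE/RAGE null aorta (exact permutation p = 0.0571), with limma adjusted p of 0.316 and 0.674, and the latter was 0.22 without replicates 9 and 10. On 1415989_at, levels ran from 5.43 to 7.14 and the corresponding differences were 0.39 ± 0.26 and 0.54 ± 0.28, with overlapping groups in both genotypes. The former was 0.20 without replicate 2, and the latter 0.25 without replicate 10 and 0.14 without replicates 9 and 10.

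Icam1 encodes a ligand of the leukocyte integrins that share the Itgb2 chain and serves firm adhesion and crossing. Its levels on 1424067_at were 6.60, 6.71, 6.40 and 6.54 in non-diabetic and 6.54, 7.20, 6.90 and 7.14 in diabetic ApoE null aorta. Of the diabetic arrays, replicates 2, 3 and 4 lay above all non-diabetic ones of this genotype, and replicate 1 did not. Among ApoE/RAGE null arrays the non-diabetic levels were 6.28, 6.09 and 6.29 and the diabetic ones 7.39, 7.71, 7.23 and 5.99. Here replicates 9, 10 and 11 were the highest of all 15 arrays and replicate 12 was the lowest. The group means were 7.08 ± 0.75 in diabetic ApoE/RAGE null, 6.94 ± 0.30 in diabetic ApoE null, 6.56 ± 0.13 in non-diabetic ApoE null and 6.22 ± 0.11 in non-diabetic ApoE/RAGE null aorta (SD). Of the neighbours in this order, the non-diabetic groups did not overlap and the others did.

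The Icam1 difference with diabetes was 0.39 ± 0.27 (SE) in ApoE null aorta, with a limma adjusted p of 0.643 and an exact permutation p of 0.0857. For ApoE/RAGE null aorta it was 0.86 ± 0.29 (1.81-fold), with a limma adjusted p of 0.674 and an exact permutation p of 0.143. Without replicate 12 the latter was 1.22, and this was the only member value to pass the threshold in any setting tried, with an adjusted p of 0.0215. Without replicates 9 and 10 it was 0.39. The difference between the genotypes in the response to diabetes (the interaction) was 0.47 ± 0.40 for Icam1, with a limma adjusted p of 0.819, so that a difference of response was not shown. It was 0.0042 without replicates 9 and 10, and 0.26 to 0.84 with single arrays left out, the lowest without replicate 10 and the highest without replicate 12. RAGE deletion in diabetic aorta gave 0.14 ± 0.27, which turned to -0.33 without replicates 9 and 10 and to -0.074 without replicate 10.

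Icam2 encodes an integrin ligand that resting endothelium and platelets carry without induction. On 1448862_at its levels were 7.23, 7.15, 6.91 and 6.90 in non-diabetic and 7.17, 7.98, 7.44 and 7.33 in diabetic ApoE null aorta. Among ApoE/RAGE null arrays they were 6.62, 6.26 and 6.70 without diabetes and 7.14, 6.98, 7.56 and 6.73 with it. All 3 non-diabetic ApoE/RAGE null arrays lay below the other 12 arrays, and replicate 10, the highest for Icam1 and for Vcam1 1448162_at and 1451314_a_at, was not high for Icam2. In order, the means were 7.48 ± 0.35, 7.10 ± 0.35, 7.05 ± 0.17 and 6.53 ± 0.23 (SD) in diabetic ApoE null, diabetic ApoE/RAGE null, non-diabetic ApoE null and non-diabetic ApoE/RAGE null aorta, and of these neighbours the last pair did not overlap.

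For Icam2 the difference with diabetes was 0.43 ± 0.19 (SE) in ApoE null aorta (limma adjusted p = 0.440) and 0.57 ± 0.20 in ApoE/RAGE null aorta (limma adjusted p = 0.674), each with an exact permutation p of 0.0571. The former was 0.27 without replicate 2, and the latter was 0.61 without replicate 10 and also without replicates 9 and 10. RAGE deletion differed by -0.52 ± 0.20 without diabetes, with an exact two-sided permutation p of 0.0286 and a limma adjusted p of 1.0, and by -0.38 ± 0.19 with diabetes (exact permutation p = 0.2, limma adjusted p = 0.360). The latter was -0.34 without replicates 9 and 10 and -0.21 without replicate 2. Mean levels of the 10 endothelial marker genes on the same arrays were 7.08 to 7.29 in replicates 5 to 8 and 6.88 to 7.15 in replicates 13 to 15, and 7.03 to 7.65 and 7.12 to 7.65 in the diabetic ApoE null and ApoE/RAGE null groups. Their part in the Icam2 values was not tested.

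**Figure D1:**
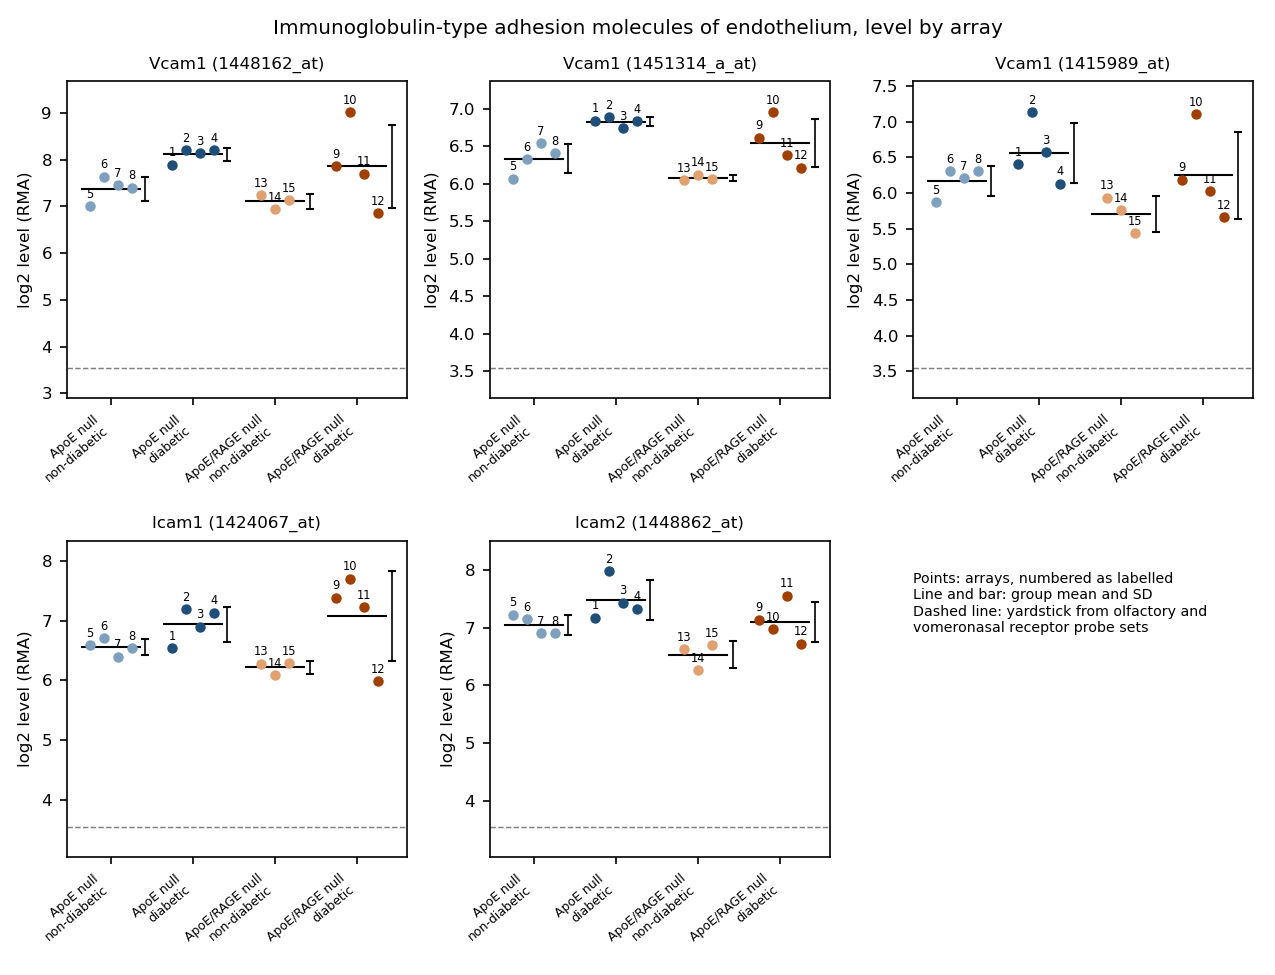
Log2 RMA level of the Vcam1, Icam1 and Icam2 probe sets on each array, with replicate numbers beside the points, group means as lines, SDs as bars and the background yardstick of 3.55 dashed where it falls within the axis. Diabetic ApoE null arrays sit above the non-diabetic ones on Vcam1 1448162_at and 1451314_a_at, and diabetic ApoE/RAGE null arrays spread most, from 6.85 to 9.01 on 1448162_at.

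Selp encodes P-selectin, which endothelial cells and platelets store in granules and move to their surface within minutes of activation; in mice its transcript is also known to be inducible. On 1420558_at, non-diabetic ApoE null levels were 6.18, 6.47, 6.15 and 6.00, and diabetic ones 6.43, 7.28, 7.22 and 7.30. Replicates 2, 3 and 4 were the highest of the 15 arrays, and replicate 1 lay within the non-diabetic range. ApoE/RAGE null levels were 5.91, 5.42 and 5.73 without diabetes, the lowest of the series, and 6.86, 5.98, 6.65 and 6.06 with it, so that the ApoE/RAGE null groups did not overlap. The means were 7.06 ± 0.42 in diabetic ApoE null, 6.39 ± 0.44 in diabetic ApoE/RAGE null, 6.20 ± 0.20 in non-diabetic ApoE null and 5.69 ± 0.25 in non-diabetic ApoE/RAGE null aorta (SD). Of the neighbours in this order, the non-diabetic groups did not overlap and the others did.

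With diabetes, Selp 1420558_at differed by 0.86 ± 0.22 (SE; 95% interval 0.38 to 1.33; 1.81-fold) in ApoE null aorta, the smallest limma p-value among the 12 probe sets in that comparison, with an adjusted p of 0.295 and an exact permutation p of 0.0571. In ApoE/RAGE null aorta the difference was 0.70 ± 0.24 (exact permutation p = 0.0857, limma adjusted p = 0.674), and 0.67 without replicates 9 and 10. RAGE deletion differed by -0.51 ± 0.24 without diabetes (exact two-sided permutation p = 0.0286, limma adjusted p = 1.0) and by -0.67 ± 0.22 with diabetes (exact permutation p = 0.0857, limma adjusted p = 0.174). The latter was -0.70 without replicates 9 and 10. The interaction was -0.16 ± 0.32 (limma adjusted p = 0.936), so a change of the diabetic response with RAGE deletion was not shown.

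The other Selp probe sets, which read close to the yardstick, pointed the same way in all 4 comparisons. On 1449906_at the levels were 4.03, 4.31, 4.37 and 4.63 in diabetic and 3.84, 4.35, 3.55 and 3.63 in non-diabetic ApoE null aorta, and 4.27, 3.23, 3.95 and 3.29 in diabetic and 3.17, 3.50 and 3.35 in non-diabetic ApoE/RAGE null aorta. The ApoE/RAGE null arrays without diabetes all lay below the ApoE null arrays without it, and the diabetic groups overlapped. Its differences were 0.49 ± 0.23 and 0.35 ± 0.24 with diabetes in ApoE null and ApoE/RAGE null aorta, and -0.50 ± 0.24 and -0.65 ± 0.23 with RAGE deletion in non-diabetic and diabetic aorta (limma adjusted p = 0.462, 0.759, 1.0 and 0.195). The value of 0.35 was 0.15 without replicate 9 and 0.28 without replicates 9 and 10. On 1440173_x_at, a kind of probe set whose probes can match other transcripts and whose levels ran from 2.84 to 4.16, the corresponding differences were 0.60 ± 0.23, 0.55 ± 0.25, -0.29 ± 0.25 and -0.33 ± 0.23. There 0.55 became 0.33 without replicate 9 and 0.53 without replicates 9 and 10, and -0.33 became -0.12 without replicate 10 and -0.36 without both.

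Platelets also carry Selp, so their marker genes are given beside it. The mean of 5 platelet genes was 4.94, 5.14, 6.19 and 5.96 in diabetic ApoE null replicates 1 to 4 and 5.77, 4.99, 5.23 and 5.18 in replicates 5 to 8. In ApoE/RAGE null aorta it was 5.47, 5.02, 4.95 and 5.21 with diabetes and 4.87, 4.78 and 4.89 without it. Ppbp, a platelet chemokine gene, was high on replicates 3 (8.01), 4 (7.04) and 5 (6.70), while replicate 2, with Selp at 7.28, had Ppbp at 4.49, and replicate 5, with Ppbp at 6.70, had Selp at 6.18. Replicates 13 to 15 were the lowest of the 15 arrays both for the platelet mean and for Selp 1420558_at, and the part of platelets in the Selp values was not tested.

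Sele encodes E-selectin, which is made anew by cytokine-activated endothelium. Its probe set 1421712_at was below the yardstick on every array, with levels between 2.19 and 2.65. The means were 2.54 ± 0.10 in diabetic and 2.40 ± 0.08 in non-diabetic ApoE null aorta, and 2.30 ± 0.14 and 2.41 ± 0.11 in diabetic and non-diabetic ApoE/RAGE null aorta (SD). All groups overlapped. RAGE deletion in diabetic aorta differed by -0.25 ± 0.087 (SE), with a limma adjusted p of 0.198. Selp, on the same chromosome, was thus measured above the yardstick where Sele was not.

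Selplg encodes PSGL-1, the leukocyte ligand of P-selectin. Levels on 1449127_at were 4.71, 5.07, 4.85 and 5.04 in diabetic and 5.01, 4.78, 4.72 and 4.83 in non-diabetic ApoE null aorta. Among ApoE/RAGE null arrays they were 4.75, 7.15, 5.07 and 4.79 with diabetes and 4.72, 4.73 and 4.34 without it. A single array, replicate 10, stood above all others, and the remaining 14 arrays lay between 4.34 and 5.07. The diabetic difference was 0.081 ± 0.38 in ApoE null and 0.84 ± 0.41 in ApoE/RAGE null aorta (limma adjusted p = 0.963 and 0.694), and the latter was 0.27 without replicate 10.

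**Figure D2:**
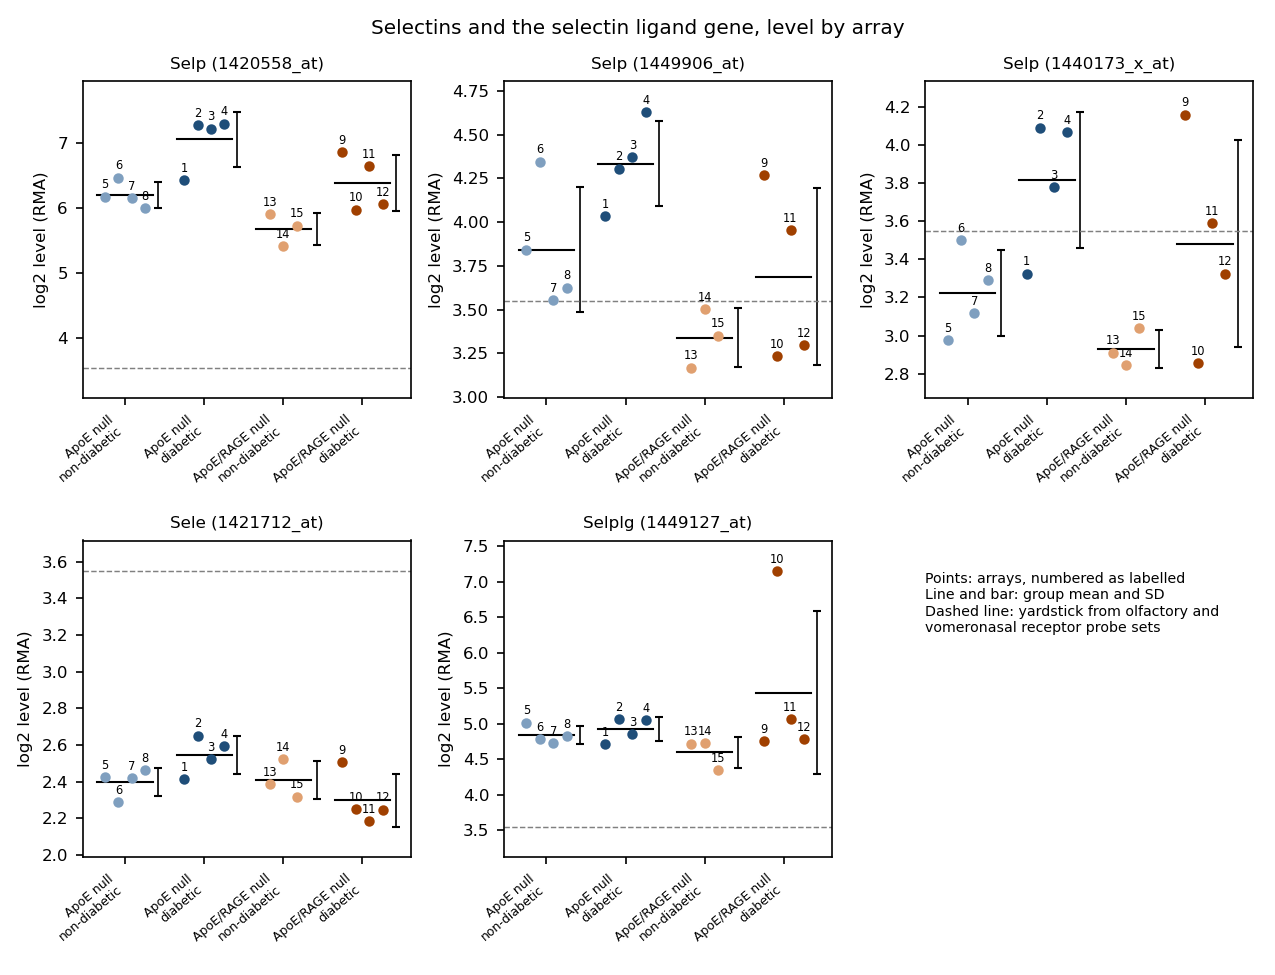
Log2 RMA level of the Selp, Sele and Selplg probe sets on each array, drawn in the same way, with the yardstick of 3.55 dashed. Diabetic ApoE null replicates 2, 3 and 4 are the highest for Selp 1420558_at (7.28, 7.22 and 7.30), all Sele points lie below the yardstick, and replicate 10 alone is high for Selplg (7.15).

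Glycam1 encodes a secreted mucin that carries L-selectin's sugar ligands; high endothelial venules of lymph nodes and the lactating mammary gland are its known sources. It was the most uneven of the 8 genes. On 1424825_a_at, replicates 1 to 4 had 2.79, 8.89, 2.72 and 4.56 and replicates 5 to 8 had 3.10, 2.78, 3.13 and 3.19. Replicates 9 to 12 had 3.10, 11.47, 8.44 and 3.19 and replicates 13 to 15 had 2.51, 2.89 and 3.09. It was thus above the yardstick on 4 diabetic arrays, 2 of each genotype, and on 0 of the 7 non-diabetic arrays, while the other 4 diabetic arrays read like the non-diabetic ones. The diabetic differences of 1.69 ± 1.62 in ApoE null and 3.72 ± 1.75 in ApoE/RAGE null aorta (limma adjusted p = 0.756 and 0.688) rest on these arrays: without replicate 2 the former was 0.30, and without replicate 10 the latter was 2.08.

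B cell marker genes were high on replicates 2, 10 and 11 among these 4 arrays and not on replicate 4, and they were high on other arrays too. The mean of 6 B cell genes was 8.25 on replicate 10, 5.98 on replicate 2 and 5.65 on replicate 11, and 4.30 on replicate 4. It was also 5.96 and 5.49 on the non-diabetic replicates 5 and 8, where Glycam1 was at 3.10 and 3.19, and 3.69 to 4.45 on the remaining arrays. Of the 4 genes of high endothelial venules and lymphoid stroma measured, the mean was 5.72 on replicate 10, 4.35 on replicate 2, 4.00 on replicate 11 and 3.13 to 3.96 elsewhere. Chst4, which sulphates L-selectin ligands in such venules, was above the yardstick only on replicate 10 (3.62), and Cxcl13, a B cell chemokine gene, was highest there (9.89). Milk protein genes were near background throughout, with a mean of 2.88 to 3.18 over 6 genes. The part of lymphoid tissue in the Glycam1 values was not tested.

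Madcam1 encodes the mucosal addressin, the ligand of the integrin of the Itga4 and Itgb7 products on gut and lymphoid venules. On 1425253_a_at, replicate 10 was at 4.86, replicate 2 was at 3.58, and the other 13 arrays lay between 3.13 and 3.49, below the yardstick. Replicate 10 was thus the highest array for Vcam1 1448162_at, Icam1, Selplg, Glycam1 and Madcam1 and ranked low for Selp 1420558_at (5.98) and in the middle for Icam2 (6.98). The Madcam1 difference with diabetes was 0.10 ± 0.26 in ApoE null and 0.35 ± 0.29 in ApoE/RAGE null aorta, and the latter turned to -0.033 without replicate 10.

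**Figure D3:**
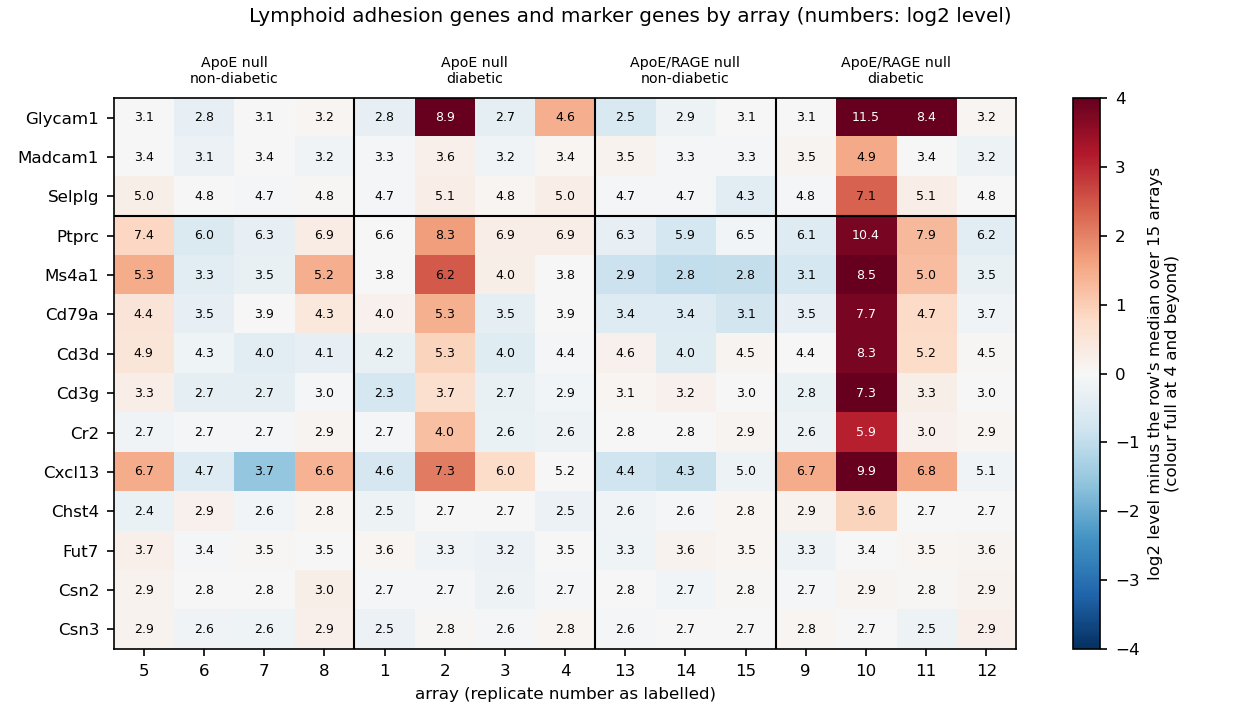
Log2 RMA levels by array of Glycam1, Madcam1, Selplg and lymphoid and leukocyte marker genes, coloured as the difference from each probe set's median over the 15 arrays, with full colour at 4 and beyond. Replicate 10 is high in most of them, Glycam1 is also high on replicates 2 (8.89) and 11 (8.44), and Ms4a1 is raised on replicates 5 (5.27) and 8 (5.23), where Glycam1 is not.

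In ApoE null aorta, diabetic means lay above non-diabetic means on all 12 member probe sets, beside 48.3% of all probe sets. Selp 1420558_at and Vcam1 1448162_at had the largest differences after Glycam1. By limma with Benjamini-Hochberg adjustment, 0 of the 12 passed the adjusted threshold, as did 0 (0%) of the 45037 probe sets. At an unadjusted p under 0.05, 6 of the 12 were higher (5.78% of all probe sets were) and 0 lower (4.86%): Vcam1 1448162_at and 1451314_a_at, Icam2 and the 3 Selp probe sets. With the submitters' criterion, B above 0, 0 members and 76 probe sets passed. Non-overlapping groups, diabetic above non-diabetic, were found for 2 of the 12, both of Vcam1, and for 3.49% of all. The median difference was 0.46 over the members and -0.01 over all probe sets. Probe sets of 1 gene are not independent, and 6 of the 12 belong to Vcam1 and Selp. Marker genes lay on the same side for leukocytes (5 of 5 higher, median 0.51), macrophages (7 of 7, 0.18), platelets (5 of 5, 0.25) and skeletal muscle (8 of 8, 1.20), and endothelial genes were higher in 6 of 10 cases (0.094). Fat genes were lower in 5 of 5 cases (median -0.64, 3 with an unadjusted p under 0.05), and T and NK cell genes were higher in 3 of 7 (-0.12). The part of these cells in the result was not tested.

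Diabetes in ApoE/RAGE null aorta gave 11 positive differences and 1 negative one, that of Sele, beside 45% positive among all probe sets. The adjusted threshold was passed by 0 members and 0 (0%) probe sets in limma, and B above 0 by 0 members and 4 probe sets. At an unadjusted p under 0.05, 6 members were higher (3.6% of all): Vcam1 1448162_at and 1451314_a_at, Icam1, Icam2, and Selp 1420558_at and 1440173_x_at. The groups did not overlap for 5 members (2.41% of all), namely Vcam1 1451314_a_at, Icam2, Selp 1420558_at, Selplg and Glycam1. Some of these gaps were narrow. The lowest diabetic and highest non-diabetic levels were 3.10 and 3.09 for Glycam1, both below the yardstick, 4.75 and 4.73 for Selplg, and 6.73 and 6.70 for Icam2. The members' median was 0.56, against -0.02 over all. Without replicates 9 and 10, 10 differences were positive and 4 members were higher at an unadjusted p under 0.05, beside 47.2% and 2.03% of all probe sets. Without replicate 12 those counts were 11 and 9, beside 43.6% and 7.13%. In the same comparison 5 of 5 leukocyte genes (median 1.41, or 0.70 without replicate 10) and 8 of 10 endothelial genes (0.37) were higher. So were 4 of 5 platelet genes (0.43) and 8 of 8 skeletal muscle genes (3.79). Smooth muscle genes were lower in 6 of 6 cases (median -0.20) and fat genes in 4 of 5 (-0.11). Fat genes were lower in 2 of 5 (0.067) without replicate 10, and the part of these cells was not tested. This comparison and the one in ApoE null aorta share no arrays, and for the interaction 0 members and 0 (0%) probe sets passed the adjusted threshold, with 0 members and 3251 probe sets (7.22%) at an unadjusted p under 0.05 and 0 members by B above 0.

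RAGE deletion without diabetes gave 10 negative differences among the 12, beside 51% of all probe sets, with a median of -0.28 against -0.00. In limma, 0 members and 0 (0%) probe sets passed the adjusted threshold, and B above 0 called 0 members. At an unadjusted p under 0.05, 2 members were lower, Icam2 and Selp 1420558_at (1.34% of all). With replicate 10 left out of the fit, which changes only the estimate of the spread here, 5 members were lower at that p (1.51% of all), as were 5 without replicates 9 and 10 (1.67%). The groups did not overlap, with ApoE/RAGE null below ApoE null, for 4 members (2.66% of all): Icam1, Icam2, and Selp 1420558_at and 1449906_at. Some marker lists lay on the same side in this comparison, with 8 of 10 endothelial, 5 of 5 leukocyte, 5 of 5 platelet and 8 of 8 skeletal muscle genes lower and medians of -0.16, -0.43, -0.26 and -0.55. Others did not: 4 of 6 smooth muscle, 4 of 7 T and NK cell and 3 of 5 fat genes were higher (medians 0.012, 0.021 and 0.018). The part of these cells in the result was not tested.

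RAGE deletion in diabetic aorta gave 8 negative differences, beside 51% of all probe sets, with a median of -0.27 against -0.00. Here 110 probe sets (0.244%) passed the adjusted threshold in limma and 0 members did, nor did any member by B above 0. At an unadjusted p under 0.05, 3 members were lower (9.21% of all): Sele, and Selp 1420558_at and 1449906_at. The groups overlapped for all 12, while 4.7% of all probe sets had ApoE/RAGE null arrays wholly below. Platelet genes, given because Selp is among these, were lower in 4 of 5 cases (median -0.31). Skeletal muscle genes were higher in 8 of 8 cases (median 1.99), fat genes in 5 of 5 (0.30) and leukocyte genes in 5 of 5 (0.48), the last lower in 5 of 5 (-0.29) without replicate 10, and the part of these cells in the result was not tested. Without replicate 10, 11 differences were negative, 6 members were lower at an unadjusted p under 0.05 (8.51% of all), and 2 lay wholly below (6.85% of all). Without replicates 9 and 10, which leaves 2 arrays, those counts were 10, 6 (8.54% of all) and 5 (12.7% of all). The 4 comparisons share groups in pairs, so their values for the members are given side by side and were not set against each other.

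**Figure D4:**
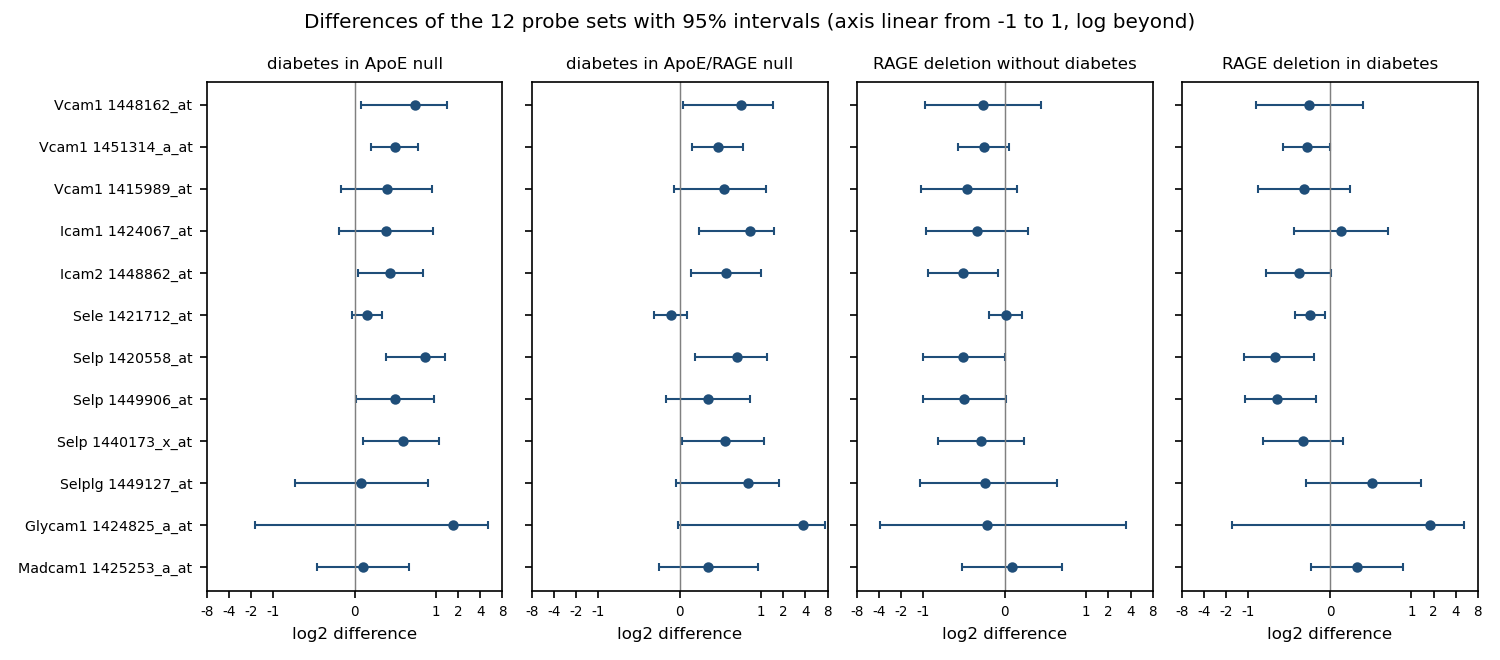
Log2 difference (points) and 95% interval (bars) from the limma fit for each of the 12 probe sets in the 4 comparisons, on an axis that is linear between -1 and 1 and logarithmic beyond. With diabetes, points lie to the right of 0 except for Sele in ApoE/RAGE null aorta (-0.11), Selp 1420558_at lies left of 0 in both RAGE comparisons (-0.51 and -0.67), and the Glycam1 intervals are the widest.

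Genes that work with these molecules were described through 5 lists, which were also chosen with earlier results of these data known. In limma 0 of the genes in these lists passed the adjusted threshold in any comparison. In ApoE null aorta, the 8 genes that shed adhesion molecules or tie them to actin were all higher with diabetes (median 0.19; 49.8% of all genes were higher), and 3 had an unadjusted p under 0.05: Msn (0.30 ± 0.13), Rdx (0.22 ± 0.075), which both anchor adhesion molecules to actin, and Vasp (0.50 ± 0.20), an actin regulator. Of 18 genes of NF-kB and cytokine signalling, 13 were higher (median 0.13), among them the interleukin receptor gene Il1r1 (0.38 ± 0.11, limma adjusted p = 0.316) and the adaptor gene Myd88 (0.22 ± 0.074). Nfkb2, an NF-kB subunit gene, had -0.28 ± 0.11. Of 17 selectin ligand and glycosylation genes, 8 were higher (median -0.061), including Cd44, a hyaluronan receptor (0.58 ± 0.19), Gcnt1, which builds the branched sugars of selectin ligands (0.63 ± 0.27), and the sulphotransferase gene Chst2 (0.37 ± 0.12). Integrin genes were higher in 6 of 7 cases (median 0.16) and junction genes in 9 of 12 (median 0.076).

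In ApoE/RAGE null aorta, 15 of the 18 NF-kB and cytokine genes were higher with diabetes (median 0.088; 44.2% of all genes were higher). Nfkbie and Tnfaip3, which encode inhibitors of NF-kB, had 1.52 ± 0.59 and 0.76 ± 0.33, and Irf1 had 0.49 ± 0.20, with limma adjusted p between 0.674 and 0.681. Without replicates 9 and 10 the 3 values were 0.78, 0.41 and 0.41, and 12 of the 18 were higher. Itgb2, the shared chain of the integrins that bind ICAM-1 and a leukocyte gene, had 0.98 ± 0.43 (0.45 without replicate 10). Beside it, leukocyte marker genes were higher in 5 of 5 cases (median 1.41, or 0.70 without replicate 10). Selectin ligand genes were higher in 13 of 17 cases (median 0.13), with Cd24a at 1.24 ± 0.43 (0.92 without replicates 9 and 10). Integrin genes were higher in 5 of 7 (median 0.19), or in 3 of 7 (-0.028) without replicate 10. Shedding and actin genes were higher in 4 of 8 (median -0.0078) and junction genes in 4 of 12 (median -0.033). Junction genes were higher in 6 of 12 (0.017) without replicate 10 and in 7 of 12 (0.0078) without replicates 9 and 10.

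RAGE deletion in diabetic aorta gave lower levels for 7 of the 8 shedding and actin genes (median -0.094; 49.4% of all genes were higher), with Vasp at -0.49 ± 0.20, Msn at -0.31 ± 0.13 and Mmp9, a matrix protease gene, at -0.31 ± 0.12. Without replicates 9 and 10 these 3 were -0.49, -0.43 and -0.23, and 5 of the 8 were lower. Integrin genes were higher in 6 of 7 cases (median 0.34), with Itgb1 the exception at -0.53 ± 0.16 (limma adjusted p = 0.152), and without replicate 10 in 2 of 7 (-0.13). Selectin ligand genes were higher in 10 of 17 (median 0.066), among them Emcn, an endothelial sialomucin gene (0.47 ± 0.23), while Tpst1, a sulphotransferase that completes the P-selectin site on PSGL-1, had -0.49 ± 0.13 (limma adjusted p = 0.107). Junction genes were lower in 8 of 12 (median -0.018), with Jam3 and Mcam at -0.55 ± 0.17 and -0.62 ± 0.20. They were lower in 6 of 12 without replicate 10 (median -0.0091) and in 6 of 12 without replicates 9 and 10 (0.016). NF-kB and cytokine genes were higher in 13 of 18 (median 0.11), among them Ager (0.43 ± 0.16). Il1r1 had -0.33 ± 0.11 and Tlr4, a receptor for bacterial products, -0.46 ± 0.19. Ager is itself the deleted gene, and whether the probes of its set 1441958_s_at lie in the deleted part was not known. That set read 5.36 and 4.95 on replicates 11 and 12, and 4.63 and 4.48 on replicates 9 and 10. The other Ager probe set, 1420428_at, did not separate the labelled genotypes. Without replicate 10 the NF-kB and cytokine list was higher in 9 of 18 and without replicates 9 and 10 in 7 of 18. Smooth muscle marker genes were lower in 6 of 6 cases in the same comparison (median -0.28), and their part in these values was not tested. Without diabetes the list medians lay between -0.047 and 0.051.

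**Figure D5:**
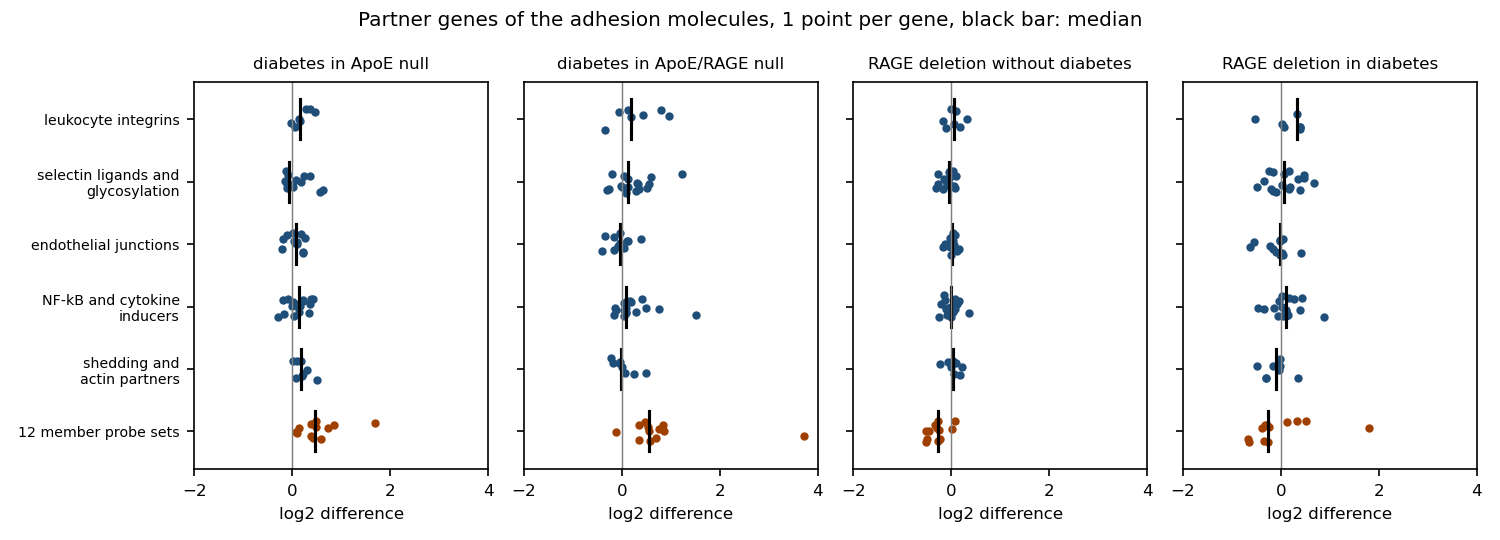
Log2 difference of each measured gene of the 5 partner lists and of the members in the 4 comparisons, with list medians marked. In ApoE null aorta all 8 shedding and actin genes lie right of 0, and in the diabetic RAGE comparison 7 of the 8 lie left of it.

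The genes whose levels most resembled each member over the 15 arrays were taken from 12952 others by Pearson r, as a description with no test, and the arrays share their groups and marker differences. For Vcam1 1448162_at they were Gcnt1 (r = 0.96, Spearman rho = 0.93), Mis18a (r = 0.95) and Adam10 (r = 0.95), and with replicates 10 and 12 left out r was 0.94, 0.91 and 0.90. Gcnt1 and Adam10, a protease known to shed adhesion molecules, are also in the partner lists. Icam1 was nearest to Bnc2, Litaf and Ptger4 (r = 0.94, 0.93 and 0.93; 0.88 to 0.90 without replicates 9 and 10). Icam2 was nearest to Mall, Procr and Cd93, of which the last 2 are endothelial surface genes (r = 0.92, 0.91 and 0.91; 0.82 to 0.85 without replicates 2 and 14).

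Selp 1420558_at was nearest to Tmem158 (r = 0.93, 0.90 without replicates 2 and 4), Tspan6 (0.89) and Lmo2 (0.87). After the group means were subtracted it was nearest to Stab1, a scavenger receptor gene of endothelium and macrophages (r = 0.90), and Icam2 to the endothelial genes Fgd5, She and Mmrn2 (0.93, 0.93 and 0.92). Over the 15 levels themselves, Selplg was nearest to AI662270, Ptpn6 and H2-DMb2 (0.98, 0.98 and 0.97), of which Ptpn6 and H2-DMb2 are leukocyte genes, and r was 0.78 to 0.88 without replicates 10 and 15. Glycam1 was nearest to Ms4a4b, a lymphocyte gene, Abcg1 and Zfp217 (0.95, 0.95 and 0.94), with rho of 0.68, 0.85 and 0.70. With group means subtracted, Selplg was nearest to AI662270, Nup210 and Ptpn6 (0.98 each). Glycam1 was then nearest to Abcg1, 6330407A03Rik and Ms4a4b (0.95, 0.95 and 0.94). These values rest in part on replicate 10, and nothing about shared control follows from them.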

How the data were processed

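Levels are on the log2 scale, as the authors deposited them after RMA; the submitters' processing notes name that method with no version. Whether all 15 arrays went through RMA together or group by group is unclear from the series' design text. Array medians ran from 4.35 to 4.42, and values were used as deposited. The number of arrays limits the precision. Groups came from the labels; 1 non-diabetic ApoE/RAGE null mouse was lost before hybridization, per the series' design text. Whether numbers mark anything beyond separate mice is not stated.

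Of 45101 probe sets, 64 controls were left out and 45037 tested: 34945 carried 1 gene, 932 several and 9160 none named in the array annotation of 2016. Of the probe sets with 1 gene, 34741 matched a RefSeq gene table (GRCm38.p6) by Entrez ID. All 15 arrays entered a single fit of group means (limma 3.58.1, R 4.3.3, empirical Bayes), p-values were adjusted across the 45037 probe sets by Benjamini-Hochberg with a threshold of 0.05, and the fit was tested on simulated data. Exact permutation tests were two-sided. For lists, the probe set with the highest mean stood for a gene. The lists, of partner genes and of cell markers, are given as counts and medians. All members were named; of lists, genes passing the threshold and the 3 with the smallest p per comparison were eligible, and marker genes are named with their list. The 8 genes and the lists were chosen with earlier results of these data known. Decr2 and the marker genes singled out by array were chosen after their values were seen.

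Alternatives were B above 0, 1 probe set per gene, dim probe sets left out, median centring, quantile normalization, only the compared groups, a robust trended variance and each array left out; counts and lists without replicates 9, 10 or 12 were added after the data were seen. Plots used Python 3.11.15 and matplotlib 3.10.9.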

Additional observations from a re-analysis of the deposited data

Results flagged for a closer look

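Within the 36 groups of 4 arrays examined (12 probe sets in 3 groups), 2 held an array that stood apart from the rest of its group by Dixon's criterion at 95%; chance gives about 1 in 20. Selp 1420558_at was 6.43 in diabetic ApoE null replicate 1, where the nearest of the other 3 arrays had 7.22, so that the gap took up 0.91 of the group's range; its difference with diabetes was 0.86 with replicate 1 and 1.07 without it. Selplg was 7.15 in diabetic ApoE/RAGE null replicate 10, where the nearest array had 5.07 and the gap took up 0.87 of the range. On that array the mean of the 5 leukocyte genes was 9.99, beside 6.15 to 7.62 on the other 3 arrays of the group, and the part of leukocyte RNA in the value was not tested.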

How the results depend on the processing

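Of the member probe sets, 0 passed the adjusted threshold in all 5 comparisons under the alternatives tried, except for Icam1 with diabetes in ApoE/RAGE null aorta without replicate 12, which made the counts over arrays left out 0 to 1. The number of all probe sets called moved more. With diabetes in ApoE null aorta it was 0 as reported, 1 with 1 probe set per gene, with dim probe sets left out or with quantile normalization, 5 with only the compared groups, 76 by B above 0 and 0 to 1 with each array left out. With diabetes in ApoE/RAGE null aorta it was 0 as reported, 4 by B above 0, 12 with only the compared groups and 0 to 49 with each array left out, the 49 without replicate 12. For RAGE deletion in diabetes it was 110 as reported, 72 with 1 probe set per gene, 321 by B above 0, 253 with dim probe sets left out, 0 with only the compared groups, 22 without replicates 9 and 10, and 0 to 931 with each array left out. The 0 came without replicate 1, 3 or 4 and the 931 without replicate 2; without replicates 9, 10, 11 and 12 in turn it was 24, 2, 1 and 31. Without diabetes, RAGE deletion called 0 as reported, 5 with only the compared groups and 9 without replicates 9 and 10.

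Signs turned without replicates 9 and 10 for Icam1 (RAGE deletion in diabetes, -0.33), for Madcam1 (diabetes in ApoE/RAGE null -0.098, RAGE deletion in diabetes -0.11, interaction -0.20) and for the interactions of Vcam1 1415989_at (-0.26) and 1448162_at (-0.57). Median centring gave -0.0072 for the last. With each array left out, signs turned in RAGE deletion in diabetes for Icam1 (-0.074 to 0.50), Madcam1 (-0.047 to 0.52), Selplg (-0.050 to 0.75) and Vcam1 1448162_at (-0.64 to 0.083), in diabetes in ApoE/RAGE null for Madcam1 (-0.033 to 0.53), and in RAGE deletion without diabetes for Sele (-0.046 to 0.057). Interactions turned for Icam2 (-0.017 to 0.30), Madcam1 (-0.13 to 0.43), Selp 1440173_x_at (-0.27 to 0.17) and 1449906_at (-0.34 to 0.0065), and Vcam1 1415989_at (-0.14 to 0.34), 1448162_at (-0.37 to 0.35) and 1451314_a_at (-0.16 to 0.084). The causes were not tested. In the ApoE null comparison with diabetes, 0 member signs turned under any alternative run. No paired analysis was possible because no 2 groups share a replicate number. Quantile normalization and median centring moved the median of all probe sets by less than 0.1 in each comparison. Limits are set by 3 to 4 arrays a group, by Sele, Madcam1 and most Glycam1 values near background, and by replicates 9 and 10, whose Decr2 and Ager levels are unlike those of the other arrays with their genotype label.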
